A study of Drosophila melanogaster with 8 samples.

Results

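The replication origin licensing genes described here are the subunits of the Mcm2-7 helicase (Mcm2, Mcm3, dpa, Mcm5, Mcm6 and Mcm7), the loading factors dup and Cdc6, and Orc1 and Orc2 of the origin recognition complex. They were found by gene symbol in the probe annotation of the array, which gave 1 probe each for 9 of the 10 genes, out of 11907 named genes on 14569 probes. Mcm7 had no probe by symbol or by gene identifier and was not analysed here. Each of the other 9 genes was measured on all 8 arrays, so all 9 passed the filter of a value in at least 4 of 5 pairs. In asense mutant cells 5 of the 9 were higher (Mcm5, Cdc6, dup, Mcm2 and Mcm6) and 0 were lower. The genes dpa, Mcm3, Orc1 and Orc2 did not pass the test. Over all features tested, 6.97% were called higher and 11.3% lower. The count of 5 fell to 0 when pair 4 or pair 5 was left out (9.01% and 7.2% of features called in either direction). It was also 0 with only array a of each pair (6.06%).

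Origins are licensed between mitosis and S phase. The origin recognition complex marks the DNA, Cdc6 joins it, and Cdt1, called double parked (dup) in Drosophila, brings in the ring of 6 Mcm subunits that later unwinds the DNA at the fork. In Drosophila many of these genes are transcribed under E2F control in cycling cells. Embryonic neuroblasts divide repeatedly, and their ganglion mother cell daughters usually divide once.

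Ventral nerve cord cells, a mix of neuroblasts and ganglion mother cells, came from stage 11 embryos of Drosophila melanogaster, with 50 to 100 cells lysed per sample. Mutant cells had the strain ase1/ase1, and controls, called wild type in the titles, had the strain ase1/FM7-KrGFP. All samples therefore carried the ase1 allele, and controls were heterozygous over a marked balancer X chromosome. Mutant and control cDNA, amplified by PCR, were hybridised together on 8 two-colour arrays that form 5 pairs (1, 3, 4, 5 and 6). In pairs 1, 4 and 5 the labels name identical sources for 2 arrays, a and b, which were averaged, and pairs 3 and 6 had array a only. The mutant was in Cy5 in pairs 1 and 3 and in Cy3 in pairs 4, 5 and 6. In bulk RNA of such pools, a change in the number of cells of a kind and a change in RNA per cell cannot be told apart.

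Values are log ratios of mutant over control, read as log2. No source used here gives the log base, scaling or centring. The direction is likely and not stated: the targeted gene ase lay between -6.50 and -4.81 on all 8 arrays in both dye orientations, with a mean of -6.06 ± 0.47 (SD, n = 5 pairs). An array gave 8200 to 9276 measured probes, and precision is limited by how few arrays there are. The median log ratio of all 8295 features tested was -0.07. Limma called 18.3% of them at a Benjamini-Hochberg adjusted p below 0.05, with 6.97% (578 features) higher and 11.3% (939) lower in the mutant. When the median of its measured values was subtracted from each array, 805 features were higher and 707 lower, and the called members were the same 5. No probe or protein sequence was used here.

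Mcm5 had the largest log ratio among the helicase subunits. It was 0.43 in pair 1, 0.48 in pair 3, 0.80 in pair 4, 0.85 in pair 5 and 1.22 in pair 6. All 5 pairs were above 0 and pair 6 was the highest. The mean was 0.76 ± 0.32 (SD, n = 5 pairs), which as log2 is a 1.69-fold higher level in the mutant, with a 95% interval of 0.41 to 1.10 and a limma adjusted p = 0.0148. Of all features tested, 4.06% had a log ratio at least as high.

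Mcm2 and Mcm6, further subunits of the same ring, rose by similar amounts. Mcm2 was at 0.28, 0.59, 0.23, 0.48 and 0.91 in pairs 1, 3, 4, 5 and 6, with a mean of 0.50 ± 0.27 (SD, n = 5, 95% interval 0.18 to 0.82, limma adjusted p = 0.0442). Pair 6 was again the highest, and pairs 1 and 4 were the lowest. Mcm6 was at 0.45, 0.12, 0.42, 0.73 and 0.72 in the same order, with a mean of 0.49 ± 0.25 (SD, n = 5, 95% interval 0.18 to 0.80, limma adjusted p = 0.04345). For Mcm6 pair 3 was the lowest, and its 8 arrays all lay above 0, from 0.06 to 0.83. Of the 6734 features tested that were measured on all 8 arrays, 6.03% were above 0 on each of them, and Mcm6 was the 1 licensing gene to be so.

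The other helicase subunits measured did not pass the test. The Mcm4 gene dpa (disc proliferation abnormal) was at 0.00091 in pair 1, 0.00038 in pair 3, 0.56 in pairs 4 and 5, and 0.52 in pair 6. It was at about 0 in pairs 1 and 3 and well above 0 in pairs 4, 5 and 6, between 0.52 and 0.56. Its mean of 0.33 ± 0.30 (SD, n = 5) had a 95% interval of -0.01 to 0.66 and a limma adjusted p = 0.145. Mcm3 was at 0.15, -0.38, 0.02, 0.18 and 0.19 in pairs 1, 3, 4, 5 and 6. Pair 3 went below 0 and the mean was 0.03 ± 0.24 (SD, n = 5, limma adjusted p = 0.882). The 95% interval for Mcm3, -0.28 to 0.34, leaves room for a change up to the size seen for dpa.

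Both loading factors rose. The Cdt1 gene dup was at 0.35 in pair 1, 0.51 in pair 3, 0.41 in pair 4, 0.77 in pair 5 and 0.98 in pair 6. The 5 pairs were all above 0 and spread about as widely as those of Mcm2. The mean was 0.61 ± 0.27 (SD, n = 5 pairs, 1.52-fold as log2, 95% interval 0.29 to 0.92, limma adjusted p = 0.0229). Cdc6, the ATPase that recruits the helicase to bound origins, was at 0.33, 1.24, 0.14, 0.54 and 1.33 in pairs 1, 3, 4, 5 and 6. Its pairs spread the most of all licensing genes, with pairs 3 and 6 far above pairs 1, 4 and 5. Its mean was 0.71 ± 0.54 (SD, n = 5, 95% interval 0.25 to 1.18, limma adjusted p = 0.0460). Pairs 3 and 6 had 1 array each and counted as much as the other pairs. With all 8 arrays fitted and the pair as a block, Cdc6 was at 0.53 and Mcm2 at 0.42.

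The 2 origin recognition subunits stayed near 0. Orc1, the largest subunit and an ATPase, was at -0.14, 0.22, -0.28, 0.17 and -0.10 in pairs 1, 3, 4, 5 and 6, with a mean of -0.03 ± 0.21 (SD, n = 5, limma adjusted p = 0.903). Orc2, which binds in the core of the complex, was at -0.28, -0.03, -0.23, 0.07 and -0.12, with a mean of -0.12 ± 0.14 (SD, n = 5, limma adjusted p = 0.509). Neither gene had the same sign in all pairs. The 95% intervals, -0.32 to 0.27 for Orc1 and -0.39 to 0.16 for Orc2, do not reach the means of Mcm2, Mcm6, dup, Cdc6 or Mcm5. An interval set beside another gene's mean is no test of their difference. That of Orc1 overlaps the intervals of Mcm2, Mcm6 and Cdc6, and Mcm6 was above Orc1 in 4 of 5 pairs.

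**Figure D1:**
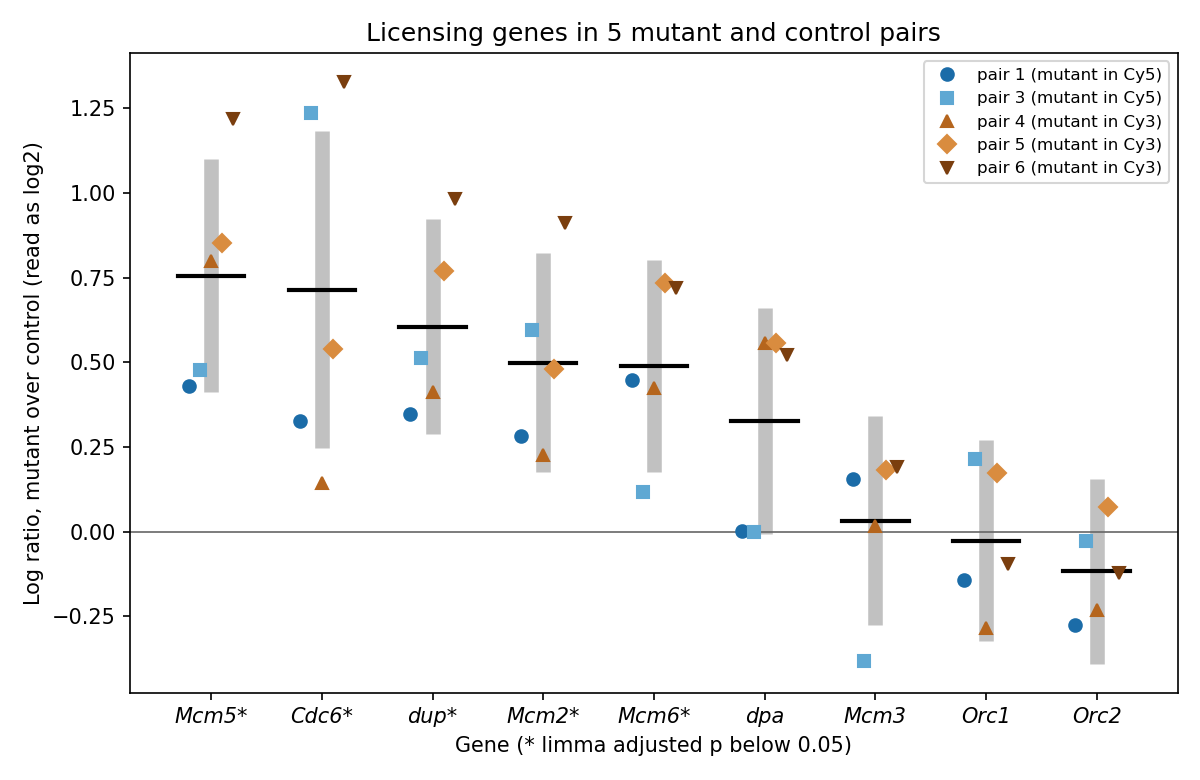
Log ratio of mutant over control (vertical axis, read as log2) for the 9 measured licensing genes in order of their mean. Points are the 5 pairs, black lines the means, grey bars limma's 95% intervals, and asterisks mark the 5 genes with an adjusted p below 0.05; Mcm5 is highest at 0.76 and Orc2 lowest at -0.12.

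The 9 genes had a median log ratio of 0.49, against -0.07 over all features tested. The count of 5 higher of 9 stands beside a background of 6.97% of features called higher, and 0 lower stands beside 11.3% called lower. Log ratios above 0 in all 5 pairs were found for 6 of the 9 genes (the 5 called genes and dpa) and for 13.9% of 7614 features measured in all pairs. By pair, the median of the 9 genes was 0.28 in pair 1, 0.22 in pair 3, 0.23 in pair 4, 0.54 in pair 5 and 0.72 in pair 6. The median of all tested features was below 0 in each pair, between -0.13 and -0.04.

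In the order Mcm5, Cdc6, dup, Mcm2, Mcm6, dpa, Mcm3, Orc1 and Orc2, no neighbours were separated in all 5 pairs. Mcm5 exceeded Cdc6 in 3 of 5 pairs by a mean of 0.04 ± 0.53 (SD), and Mcm2 exceeded Mcm6 in 2 of 5 by 0.01 ± 0.31. Some genes farther apart were separated: Mcm5 was above dpa by 0.43 ± 0.18, above Mcm3 by 0.72 ± 0.28 and above Orc2 by 0.87 ± 0.32 in each of the 5 pairs. Others were not: Mcm5 was above Mcm6 in 4 of 5 pairs and Cdc6 above dpa in 3 of 5. The order was itself set by the means of these pairs. Mcm6 was above Mcm3, the other X-linked member, by 0.46 ± 0.11 in each of the 5. Of the 36 combinations of 2 members, 16 had the same order in every pair. An exact two-sided sign-flip test over 5 pairs cannot give a p below 0.0625, the value for each of those 16, so no such difference can pass 0.05 before any adjustment.

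Arrays a and b of a pair gave different pictures. On array a of pairs 1, 4 and 5, Mcm5 was at -0.31, 0.37 and 0.35, and on array b at 1.17, 1.23 and 1.36. In these pairs the 3 arrays a do not overlap the 3 arrays b, and the 3 arrays b lie close together. Array a of pair 6, at 1.22, lay within the range of the arrays b. Mcm6 was at 0.06, 0.09 and 0.66 on arrays a and at 0.83, 0.75 and 0.81 on arrays b, again without overlap. The dup gene was at -0.13, 0.14 and 0.60 on arrays a and at 0.82, 0.69 and 0.94 on arrays b, also without overlap. Array a of pair 6 was at 0.98 for dup, above its arrays b, and at 0.72 for Mcm6, below its arrays b. The share of all features without such overlap was not counted, so whether it is unusual cannot be said.

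Within pairs, array b was above array a in all 3 for Mcm5, Mcm6, dup, dpa, Mcm3 and Orc1. That is 6 of 9 members, beside 15.5% of the 6829 features with 3 differences, and array a was above array b in all 3 for 0 of 9 members, beside 19.3% of features. For dpa the step was confined to pairs 4 and 5, at 0.10 and 0.12 on arrays a and 1.01 and 0.99 on arrays b, while pair 1 gave -0.05 and 0.05. For Mcm3, arrays a of the 3 pairs were between -0.09 and -0.05 and arrays b between 0.11 and 0.41, again without overlap. For dpa, Orc1, Mcm2, Cdc6 and Orc2 the arrays a and b of these pairs overlapped. The mean difference, array a minus array b, was below 0 for all 9 genes, from -1.12 for Mcm5 (95% interval -1.83 to -0.40) to -0.25 for Mcm2, with a median of -0.54 over members and 0.05 over all features.

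No difference between arrays a and b passed the test across features. Limma with 3 differences called 0% of features (0 of 6829), and 641 had an unadjusted p below 0.05. Mcm5 had an unadjusted p of 0.00846 in that fit and an adjusted p = 0.465, and the other 8 members had limma adjusted p between 0.562 and 0.865. The intervals are wide, for instance -1.32 to 0.10 for dup and -1.24 to 0.19 for Mcm6.

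Mcm2, Cdc6 and Orc2 did not follow the same order in all 3 pairs. Mcm2 was at 0.63, -0.56 and 0.55 on arrays a of pairs 1, 4 and 5 and at -0.06, 1.01 and 0.41 on arrays b. Cdc6 was at 0.02, -0.63 and 0.72 on arrays a and at 0.63, 0.92 and 0.36 on arrays b. For both genes the pair 4 arrays were the farthest apart, with array a below 0 and array b near 1. Array a of pair 4 was also the lowest of all arrays for Orc1 (-0.80) and Orc2 (-0.60). Orc2 on arrays a of pairs 1, 4 and 5 was at -0.20, -0.60 and -0.16, and on arrays b at -0.35, 0.14 and 0.30.

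The members' median was -0.09 on array a and 0.40 on array b of pair 1, -0.07 and 0.75 in pair 4, and 0.35 and 0.41 in pair 5. It was 0.22 on array a of pair 3 and 0.72 on array a of pair 6, so arrays a differed among themselves as well. With array a of every pair alone, limma called 0 of the 9 members, beside 2.41% of features called higher and 6.06% in all, and their log ratios ran from -0.22 for Orc2 to 0.53 for Cdc6. With array b of pairs 1, 4 and 5 alone it called Mcm5 (1.25, adjusted p = 0.0283), beside 1.75% of features called higher, and all 9 members were above 0. With array b where a pair had one and array a otherwise, an alternative added after seeing the data, it called Mcm5, dup, Mcm6 and Cdc6, beside 7.06% of features called higher. Without array a of pair 1 the called members were the same 4, beside 17.5% of features called in either direction. Without array a of pair 4 they were the 5 of the full data, beside 17.4% of features. Both of these fits were also added after seeing the data. Across all probes, arrays of the same pair correlated at 0.282 to 0.413, arrays a with each other at 0.278 to 0.56, arrays b with each other at 0.363 to 0.615, and array a with array b of another pair at 0.297 to 0.535. These correlations describe arrays that share a genotype contrast, and probes are not independent. What distinguishes array a from array b is not in the labels, and its part in the result was not tested.

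**Figure D2:**
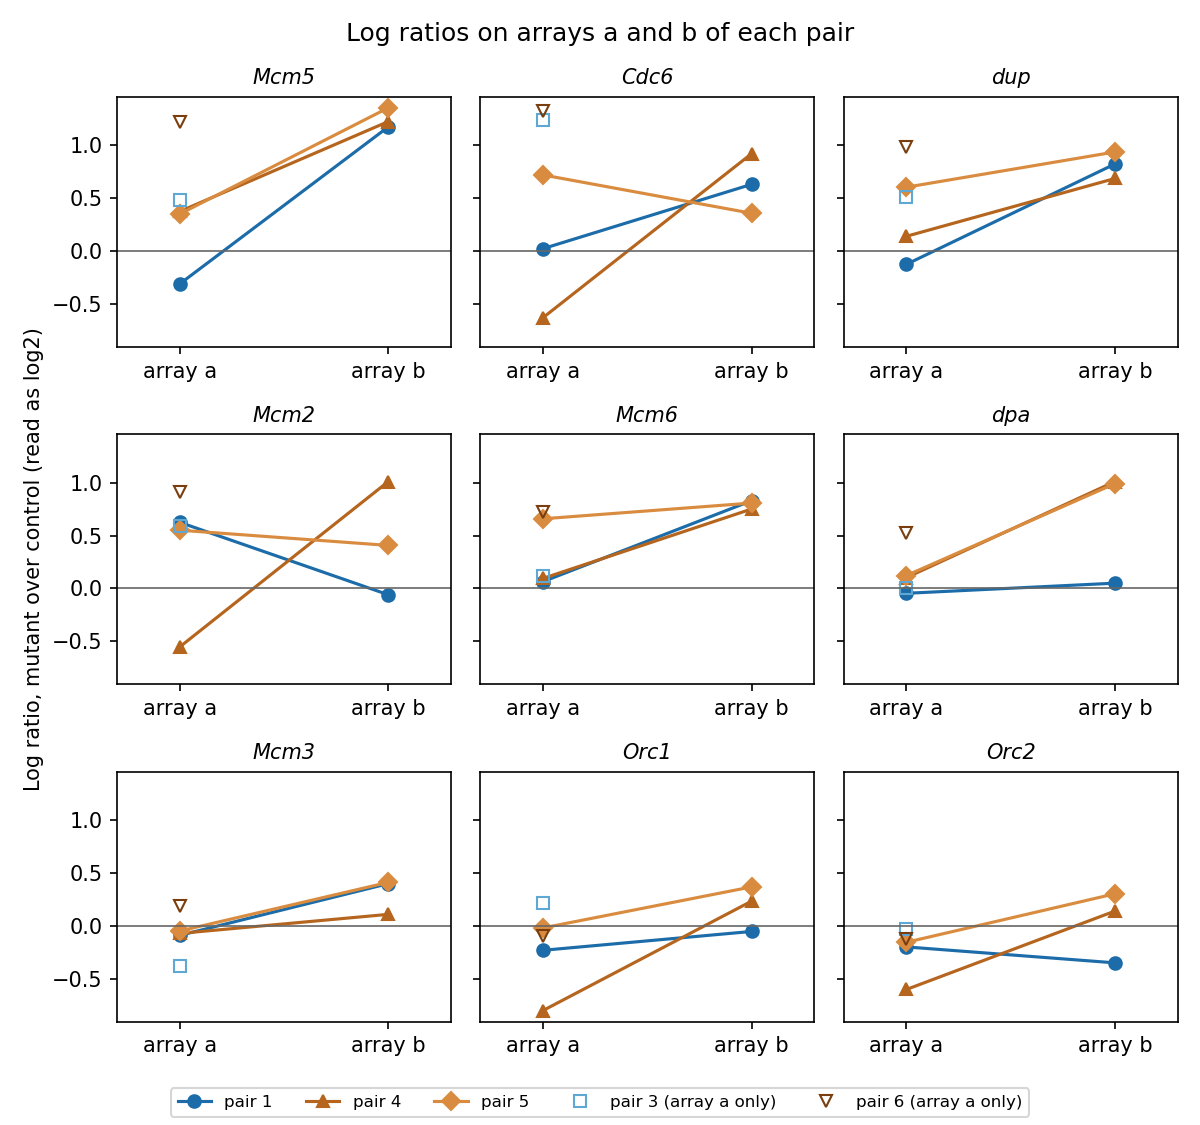
Log ratio of mutant over control (vertical axis, read as log2) on array a and array b for the 9 measured licensing genes, with lines joining the arrays of pairs 1, 4 and 5 and open points for pairs 3 and 6, which had array a only. Lines climb towards array b in all 3 pairs for Mcm5, dup, Mcm6, dpa, Mcm3 and Orc1.

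Dye orientation ran with some of the values. In pairs 1 and 3, with the mutant in Cy5, dpa averaged 0.0006 and Mcm5 averaged 0.45, and in pairs 4, 5 and 6, with the mutant in Cy3, dpa averaged 0.55 and Mcm5 averaged 0.96. For these 2 genes the orientations did not overlap, beside 9.22% of features in which the Cy3 pairs were all above the Cy5 pairs. The other 7 members overlapped. For 0 members the Cy3 pairs were all below the Cy5 pairs, beside 12% of features. A dye term in limma had adjusted p between 0.948 and 0.983 over the members. Its unadjusted limma p was 0.0514 for dpa and 0.0933 for Mcm5. The term rests on 2 pairs against 3, so a high adjusted p does not show that dye had no effect. With that term in the model Mcm5 and dup remained called, and Mcm2, Mcm6 and Cdc6 did not, beside 13.4% of all features called with the term and 18.3% without it.

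Of 7 other genes of origin recognition and licensing 5 were tested, 1 was higher and 0 were lower, with a median of 0.25. Mcm10, which acts when the loaded helicase is activated, rose by 0.62 ± 0.38 (SD, n = 5, limma adjusted p = 0.0374). Its highest value was 1.17 in pair 3, and its lowest was 0.18 in pair 6, the pair that was highest for Mcm5, Mcm2, dup and Cdc6. Orc3 was at 0.50 ± 0.34 (adjusted p = 0.0570 in limma), and chosen after its values were seen it is named as the origin recognition subunit farthest from 0. The remaining genes ran from -0.29 to 0.25.

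Of 11 genes of helicase activation and origin firing 10 were tested, 1 was higher and 0 were lower, with a median of 0.20. Sld5, a subunit of the GINS complex that travels with the helicase, rose by 0.68 ± 0.24 (SD, n = 5, limma adjusted p = 0.0147). Its pairs were at 0.63, 0.38, 0.61, 0.72 and 1.05 in pairs 1, 3, 4, 5 and 6, all above 0. The other GINS subunits did not pass and ran in both directions, with Psf1 at -0.44 (adjusted p = 0.0741), Psf2 at 0.16 and Psf3 at 0.30, named after their values were seen.

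Of the E2F and cyclin regulators of S phase entry, 0 of 8 tested passed limma's adjusted threshold. The 2 with the smallest p were the retinoblastoma family gene Rbf, at 0.53 with an unadjusted p of 0.01163, and the F-box gene ago, at -0.37 with an unadjusted p of 0.0164 (limma adjusted p = 0.0575 and 0.0705). The list median was 0.11, with 4 of 8 above 0. Of 17 tested genes of the fork and of nucleotide supply, 1 was higher and 0 were lower, with a median of 0.12. RnrL, the large subunit of ribonucleotide reductase, rose by 0.53 ± 0.29 (SD, n = 5, limma adjusted p = 0.0401). PolA1 had the largest log ratio of that list, 0.72 ± 0.59, and did not pass (limma adjusted p = 0.056). It was named after its values were seen. These lists are described by their counts beside the 6.97% of features called higher and 11.3% called lower, and differences between lists were not tested.

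**Figure D3:**
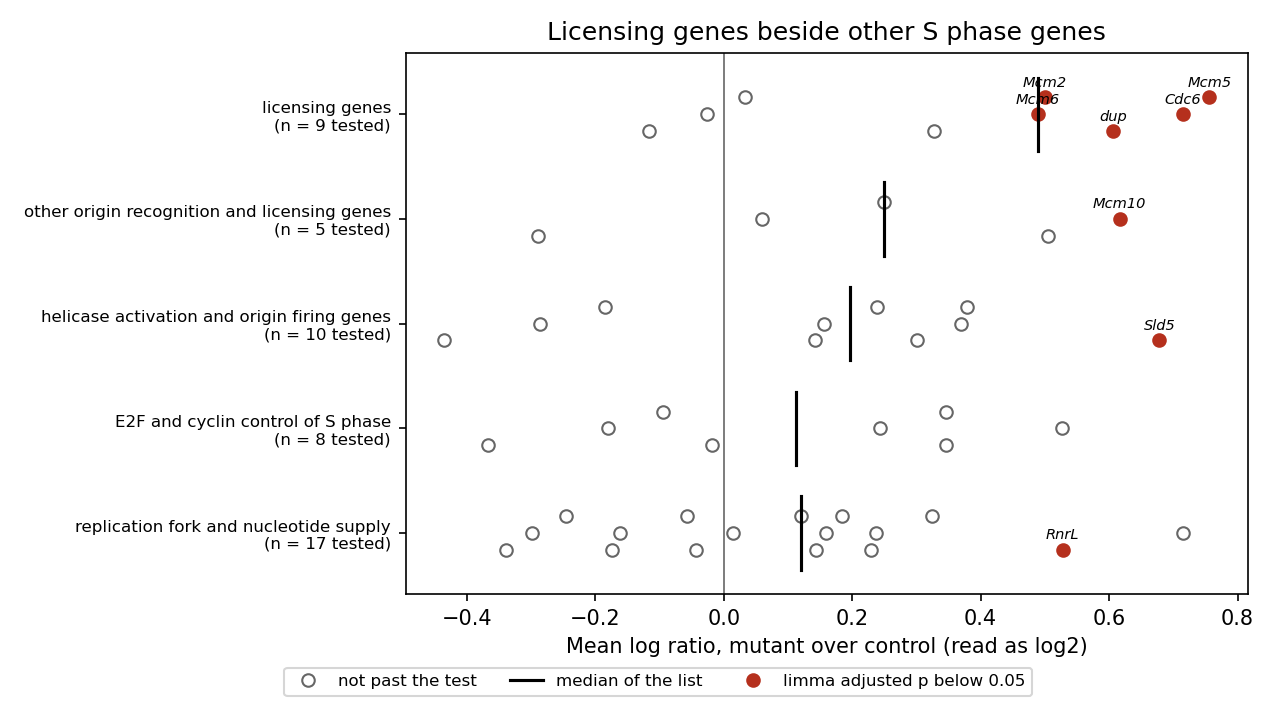
Mean log ratio of mutant over control (horizontal axis, read as log2) of each tested gene in 5 lists, with filled points for a limma adjusted p below 0.05, open points for the rest and a vertical bar at each list's median. Medians were 0.49 for the licensing genes, 0.25, 0.20, 0.11 and 0.12 for the lists below it in order.

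Over the 5 pairs, the mean of the 5 measured helicase subunits was 0.26 in pair 1, 0.16 in pair 3, 0.41 in pair 4, 0.56 in pair 5 and 0.71 in pair 6. The features nearest to that profile among 7605 others measured in all pairs were CG5641, daughterless (da), CG10336, ema and the gene of the large subunit of chromatin assembly factor 1, which works behind the fork. Their root mean square differences from it ran from 0.06 for CG5641 to 0.11 for the chromatin assembly gene, against a median of 0.67 over all those features. They were picked as the smallest differences, so lying below the median was fixed by the choice. Daughterless encodes the basic helix-loop-helix partner of proneural proteins. Da was at 0.21, 0.23, 0.40, 0.53 and 0.60 in pairs 1, 3, 4, 5 and 6 and did not pass the test (limma adjusted p = 0.0602). CG10336 was also a member of the origin firing list, so it is no independent addition. Among the members Mcm6 (0.12) and dpa (0.18) lay nearest to the mean profile that they belong to, and Mcm3 (0.42) was the farthest of the subunits.

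Markers of cell types moved in the same comparison. Of 10 tested neuroblast markers 4 fell and 0 rose, with a list median of -0.56. Those that fell were ase, which is the targeted gene, pros at -1.27, klu at -1.21 and mira at -0.69. Among those not past the test, the neuroblast repressor gene dpn was at -0.44, wor at -0.11, insc at -0.03 and sna at 0.52. The genes not past the test were named after their values were seen. Of 7 tested ganglion mother cell and neuron markers 4 fell (nerfin-1 at -1.31, pros, elav at -0.67 and Appl at -0.43) and 1 rose (acj6 at 0.63). Among markers of cells outside the labelled populations, 3 of 4 glial markers fell (gcm at -3.77, Gs2 at -1.61 and repo at -1.20) and 2 of 3 mesoderm markers fell (lmd at -2.08 and slou at -0.75). Some of these means hide a wide spread over pairs. The pairs ran from -6.3 to -1.1 for gcm, from -2.8 to 0.05 for Gs2 and from -3.7 to -0.14 for lmd. Of 4 hemocyte markers crq (-1.05) and Hml (-0.39) fell and Tig (0.90) rose, and of 5 ectoderm markers pyd (0.72), crb (0.52) and hh (0.50) rose while grh (-0.68, limma adjusted p = 0.0504) and en (-0.15) did not pass, the last 2 named after their values were seen and grh being on the neuroblast list too. Both repo and Tig were measured in 4 pairs. The counts of called markers stand beside 6.97% of all features called higher and 11.3% called lower. A log ratio does not say how much of a marker was present, and the part of cell composition in the licensing gene values was not tested.

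The calls rest on few pairs. Without pair 4 or without pair 5, limma called 0 of the 9 members, and it called 2 without pair 1, 3 without pair 3 and 2 on omitting pair 6. The share of all features called was also lower, at 9.01% when pair 4 was left out and 7.2% when pair 5 was. It was 11.3%, 12.5% and 15.8% on omitting pair 1, pair 3 and pair 6 in that order, against 18.3% over all pairs. Mcm5 and dup were those called without pair 1 and without pair 6, and Mcm6 joined them without pair 3. The log ratio of Mcm5 stayed between 0.64 and 0.84 over these 5 fits, that of dup between 0.51 and 0.67, that of Mcm6 between 0.43 and 0.58, that of Cdc6 between 0.56 and 0.86 and that of Mcm2 between 0.40 and 0.57. Over 22 alternative settings that keep the ratios as mutant over control, Mcm5 kept its call in 18, dup in 17, Mcm6 in 14, Cdc6 in 10 and Mcm2 in 8, with none of the 5 changing sign. Over those settings the limma adjusted p of Mcm5 ran from 0.00634 to 0.278 and that of Mcm2 from 0.0257 to 0.291. Some of the 22 settings could not move a member's log ratio. They were each probe on its own, the filters on measured pairs or arrays, robust moderation and exact zeros kept.

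**Figure D4:**
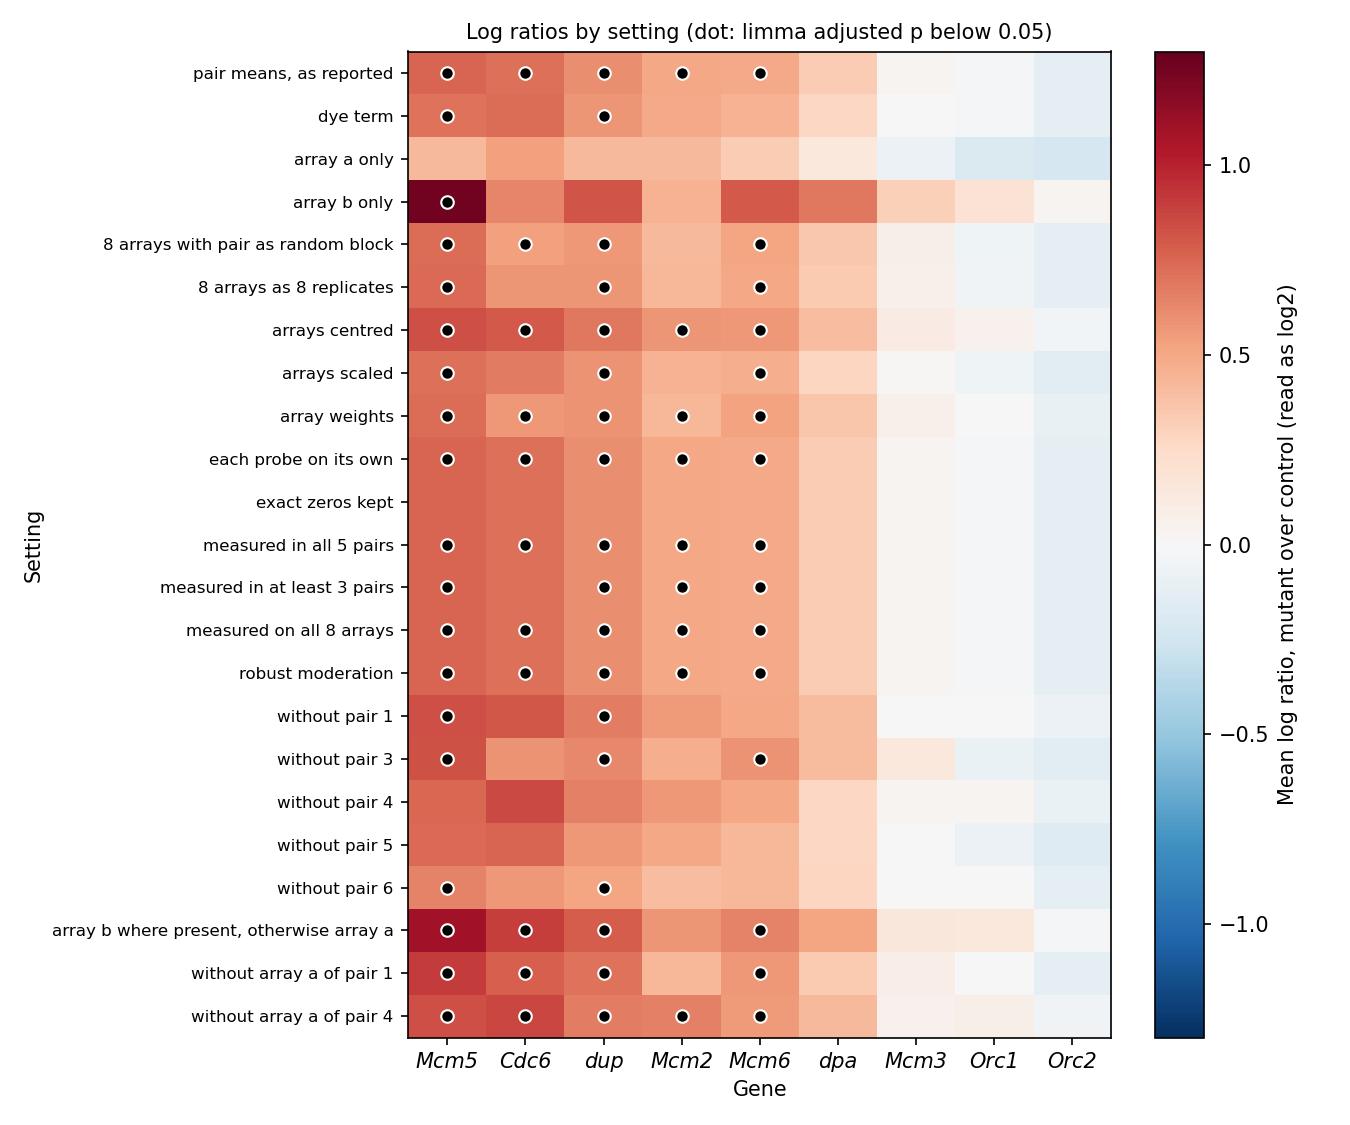
Mean log ratio of mutant over control (colour, read as log2) for each measured licensing gene (columns) under the reported fit and 22 other settings (rows), with a dot where the limma adjusted p was below 0.05. The rows for arrays a alone, for exact zeros kept and without pair 4 or pair 5 hold no dot, and Mcm5 has the most dots.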

How the data were processed

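The values analysed are the authors' deposited log ratios of the 2 channels of each array, read here as log2. The labels' protocols give cell lysis, reverse transcription, PCR amplification and Klenow labelling. No source used here gives the scanner, log base, normalization or centring. Spot intensities were not used. The median of every column was 0, and exact zeros, 36.3% to 43.7% of an array, were taken as not measured. Probes were named through the platform annotation and gene identifiers of the Release 6 plus ISO1 MT table, used for names and chromosome arms only. Probes of a gene and arrays of a pair were averaged.

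Features with at least 4 of 5 pairs were tested against 0 with lmFit and eBayes (limma 3.58.1, R 4.3.3), two-sided, with Benjamini-Hochberg adjustment over all 8295. Array a minus array b was tested in the same way on 3 pairs. All adjusted p-values are limma's. The procedure was tested on simulated data. The design text speaks of 8 samples per genotype, while source names give 5, and no label ties the pairs to different embryos. The p-values thus reflect how these pairs vary, and that spread may be technical.

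Members and gene lists were chosen with earlier results of these data known. The rule names all members, ase, list members past the test or otherwise the 2 with the smallest p, and the 5 features nearest to the mean Mcm profile. Alternatives changed direction, dye, repeat arrays, centring, scaling, weights, probe averaging, zeros, filters, moderation, threshold and pairs. Using array b where present and leaving out array a of pair 1 or pair 4 were chosen after seeing the data.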

Additional observations from a re-analysis of the deposited data

How the results depend on the processing

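Read as Cy5 over Cy3 on every array, the table called 0 features in limma (117 at an unadjusted p below 0.05) and 0 members. Log ratios were then -0.15 for Mcm2, -0.12 for Mcm3, -0.33 for dpa, -0.39 for Mcm5, -0.26 for Mcm6, -0.26 for dup, -0.089 for Cdc6, 0.056 for Orc1 and 1.34 for ase. The count of 5 called members (18.3% of all features called) became 2 with a dye term (13.4%), 0 with array a only (6.06%) and 1 with array b only (4.71%). It became 3 with 8 arrays as 8 replicates (20.9%) and 3 with arrays scaled (18.1%). It was 0 with exact zeros kept (2.5%) and 0 at an adjusted p below 0.01 (4.48%). Each percentage is the share of all features called in that setting. Keeping zeros left the members' log ratios as they were and tested 13819 features. Leaving out 1 pair gave 0 to 3 called members. The 1517 calls over all features became 474 with array a only, 359 with array b only, 345 with zeros kept, 2490 at an adjusted p below 0.10 and 372 at an adjusted p below 0.01. Leaving out 1 pair gave 597 to 1309. Array a minus array b gave 0 calls, and 0 to 5 with 1 pair left out.

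In the other settings signs changed for Mcm3, Orc1 and Orc2, none of which was called in any. Mcm3 was -0.081 with array a only and 0.31 with array b only, and with 1 pair left out it ran from -0.0069 (without pair 6) to 0.14, with -0.0044 without pair 5. Orc1 was -0.19 with array a only, 0.18 with array b only, 0.052 with arrays centred, 0.13 with array b where present and 0.077 without array a of pair 4, and with 1 pair left out it ran from -0.087 to 0.038 (without pair 4), with 0.0026 without pair 1. Orc2 was -0.22 with array a only and 0.031 with array b only. The causes were not tested. Each array already compares a mutant with its own control, so the test of log ratios against 0 was itself paired.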

Other observations

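Over pairs 1, 4 and 5, Mcm5 had an SD of 0.39 on arrays a and 0.09 on arrays b, Mcm6 had 0.34 and 0.04, and dup had 0.37 and 0.13, in each case smaller on arrays b. The SD was smaller on arrays b for 6 of 9 members, beside 47.4% of 6825 features, and the median SD over those features was 0.34 on arrays a and 0.36 on arrays b. It was larger on arrays b for dpa (0.09 on arrays a and 0.55 on arrays b), Mcm3 (0.02 and 0.17) and Orc2 (0.25 and 0.34).

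Members on the X chromosome, which carries the ase1 allele and, in controls, the FM7 balancer, did not behave alike: Mcm6 was at 0.49 and Mcm3 at 0.03. The median log ratio of the 1117 X-linked features tested was -0.085, with 5.73% called higher.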
